A study of Rattus norvegicus with 24 samples.

Results

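Translation initiation and elongation factors are the proteins that bring the ribosome to an mRNA and move it along the coding sequence. Initiation factors (eIF) load the initiator tRNA, bind the cap of the mRNA, unwind its leader and join the ribosomal subunits. Elongation factors (eEF) deliver each aminoacyl-tRNA and translocate the ribosome. Adult skeletal muscle fibres are known for their use of the tissue-restricted eEF1A2 isoform in place of eEF1A1, the isoform of most other cells. The members described here were the protein-coding genes whose symbol starts with Eif or Eef and a digit, with the transcript values of each gene summed. They numbered 64 of the 15341 genes in the transcript table, 12 with an Eef and 52 with an Eif symbol, and 88 transcripts stood for them.

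RNA was sequenced from the tibialis anterior of 12 adult male Wistar rats. The left muscle was trained daily by an implanted pulse generator with electrodes at the nerves, in a programme (SpillOver) in which the plantarflexors resisted the dorsiflexors, and the right muscle of the same rat was the unstimulated contralateral control. There were 3 rats at each of 2, 10, 20 and 30 days of training, all without genetic modification, and both muscles were taken 1 h after the last session, so a trained muscle carried the effects of that session as well as those of the days before it. All 12 rats carried the implant, and the contralateral muscle shared the circulation of its animal. Training itself was done in conscious rats. Each trained group of 3 was compared with the 12 contralateral muscles together, and the muscles of each animal were also set side by side.

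Values are given as scaled TPM: TPM, which is already per transcript length, divided by a median-of-ratios factor of the sample that lay between 0.778 and 1.14. Such values keep no sequencing depth, so the precision that depth gives is unknown. Of the 64 members, 61 reached a value of 1 in at least 3 muscles and were tested with limma on log2(value + 1), a scale that understates the change of low genes, and adjusted p-values (Benjamini-Hochberg) are over all 11234 genes tested. The other 3 were Eef2kmt, Eif2ak3 and Eif5a2, whose mean values in the contralateral muscles were 0.42, 0.59 and 0.53.

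The tissue carried its label: Ckm, Acta1, Actn3, Tnnt3, Tnni2 and Mb, genes of the muscle fibre, summed to 66681 to 79942 in the contralateral muscles and to 51770 to 86495 in the trained muscles, with 2 or 3 of the 6 lower at each time point (Actn3 at all 4) and 0, 2, 1 and 1 higher in order of time, Acta1 at 10 days and Mb at 10, 20 and 30 days. Markers of other cell types moved with training. The 8 macrophage and leukocyte markers summed to 15.5 to 33.7 in the contralateral muscles and to 46.2 to 152 in the trained muscles, and 6 to 7 of the 7 tested rose at each time point. The 5 fibroblast markers summed to 74.6 to 253 in the contralateral and 301 to 982 in the trained muscles, and 4 rose at 2 days and 5 at each later time. Of the satellite cell markers, Pax7 was listed at 0 in 2 muscles and never reached 1, while Myf5 rose at 2 and 10 days. In whole muscle, fewer cells of a type and less RNA per cell cannot be told apart.

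In the contralateral muscles a few members held most of the factor mRNA. Eef1a2, which delivers aminoacyl-tRNA, was the highest at 871 ± 67.5 scaled TPM (SD, n = 12). Eef2, the translocase, followed at 498 ± 40.8, and Eif1, the start codon scanning factor, at 423 ± 56.2. Eif4a2, a helicase isoform, stood at 337 ± 31.4 and Eef1g, a subunit of the exchange complex of eEF1A, at 320.5 ± 36.8. These 5 genes made up 57.2% of the summed value of all members and Eef1a2 alone 20.35%. Eef1a2 did not overlap any other member over the 12 muscles, whereas the ranges of Eef2 (424 to 574) and Eif1 (353 to 521) overlapped, as did those of Eif4a2 (296 to 389) and Eef1g (257 to 388). In all, 9 members were above 100 and 10 were below 5.

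**Figure D1:**
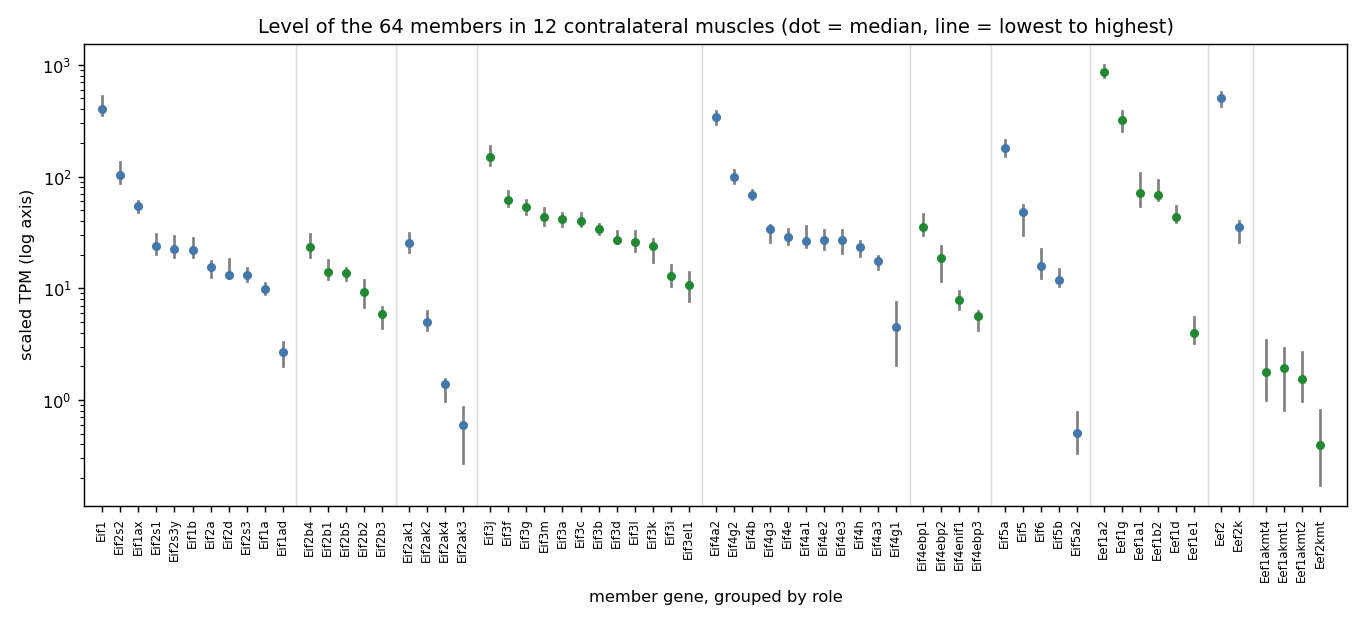
Level of each of the 64 members in the 12 contralateral muscles, as scaled TPM on a log axis, ordered within role groups along the horizontal axis. Dots are medians and lines run from the lowest to the highest muscle; Eef1a2 stands at the top with values of 774 to 997.

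The summed value of the 64 members was 4280.5 ± 209 in the contralateral muscles (SD, n = 12). In the trained groups of 2, 10, 20 and 30 days it was 4261 ± 79.6, 4094 ± 188, 4043 ± 504 and 4151 ± 243 (n = 3 each). The trained groups overlapped the contralateral range of 3960 to 4721 at each time point.

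After 2 days of training 8 of the 61 tested members rose and 5 fell, against 28.8% of all genes tested that were called in either direction (15.4% higher, 13.4% lower). At 10 days 5 rose and 11 fell, where 28.9% of all genes were called (15.6% higher, 13.3% lower). The 20-day group had 3 higher and 9 lower, beside 21.2% of all genes (11.7% and 9.57%), and the 30-day group 3 and 3, beside 20.5% (11.1% and 9.4%). The called share of the members was thus 21.3%, 26.2%, 19.7% and 9.84%, below that of all genes in this fit, by little at 10 and 20 days. That order depended on the processing. With no filter on low genes the members were above at 10 days (26.6% beside 24.1%) and 20 days (18.75% beside 16.5%). Without the scaling factor they were above at 2 days (27.9% beside 25.4%) and 30 days (37.7% beside 28.7%). At the other times they were below in both settings. The median log2 fold change of the members was 0.07, -0.07, -0.05 and -0.01 at the 4 time points, beside -0.01, -0.03, -0.03 and -0.01 over all genes. Over the 4 comparisons, which share their contralateral muscles, 39 members passed at no time point, 22 passed at 1 or more, and 4 passed in the same direction at all 4: Eef1a1 and Eif4e2 rose, and Eif4e3 and Eef2k fell.

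With the animal as a block, 6, 10, 8 and 6 members were called in order of time, beside 21.5%, 20%, 17.3% and 12.2% of all genes. Leaving out the second trained muscle of the 2-day group left 4 members called at 2 days; leaving out the first or the second of the 10-day group left 9 or 8 at 10 days, and leaving out the second or the third of the 30-day group left 3 at 30 days. On the values as deposited, without the scaling factor, 15 members rose and 2 fell at 2 days, 5 rose and 2 fell at 10 days, 3 rose and 4 fell at 20 days, and 1 rose and 22 fell at 30 days (25.4%, 24.6%, 16.8% and 28.7% of all genes called). Those that fell were Eif4e3 and Eif4ebp2 at 2 days, Eif1 and Eif4e3 at 10 days, and Eif4b, Eif4e3, Eif4ebp1 and Eif4ebp2 at 20 days, so that the other falls given for these times did not pass there. The median of all genes without the scaling factor stood at 0.07, 0.07, -0.03 and -0.18.

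**Figure D2:**
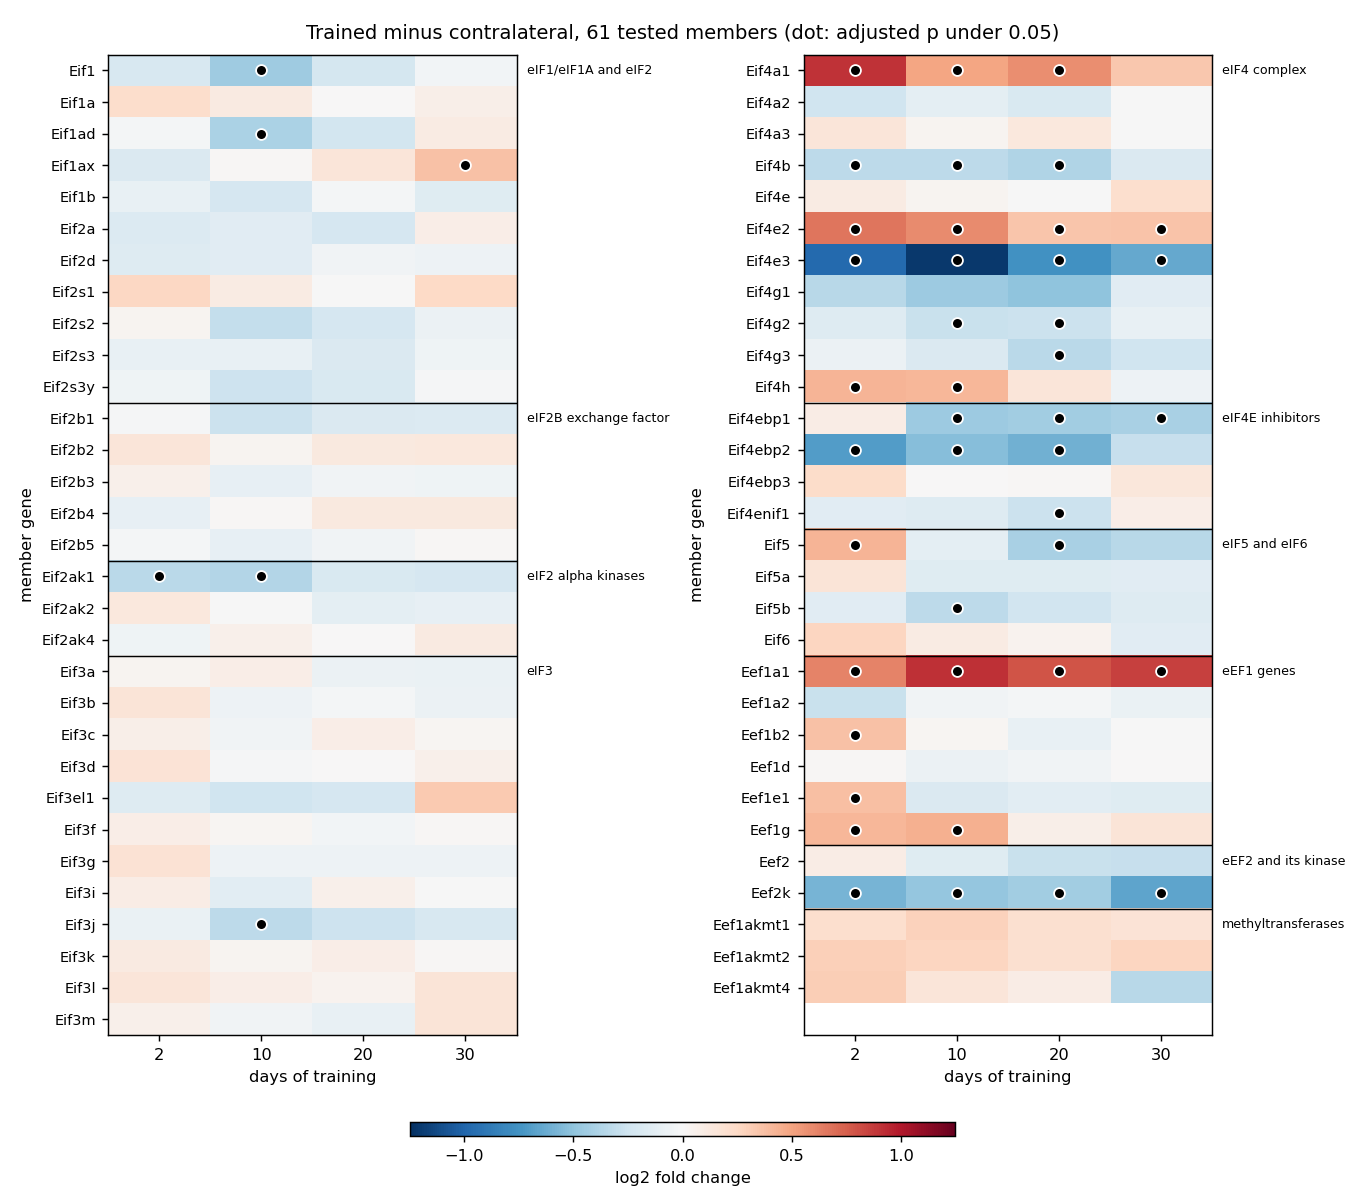
Log2 fold change of the 61 tested members (rows, grouped by role) in trained against contralateral muscles at 2, 10, 20 and 30 days (columns), with dots where the adjusted p was under 0.05. Eef1a1 and Eif4e2 are red and Eif4e3 and Eef2k are blue with a dot in all 4 columns, whereas the rows of eIF3 and eIF2B hold 1 dot between them.

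The clearest pattern among the elongation factors was a rise of Eef1a1 beside an Eef1a2 that passed the test at no time point. Eef1a1 lies in one transcript on the minus strand of chromosome 8 (85838869 to 85840819, Rnor_6.0) and Eef1a2 on that of chromosome 3 (176657107 to 176666283). Eef1a1 read 55.0, 70.8 and 108 scaled TPM in the lowest, median and highest contralateral muscle. In the trained muscles it read 90.02, 131 and 113 at 2 days, 158, 139 and 112 at 10 days, 127, 112 and 133 at 20 days, and 121, 122 and 146 at 30 days. It was above the contralateral muscle of the same rat in 12 of 12 animals and above all contralateral muscles in 11 of 12, the exception being the first muscle of the 2-day group. The log2 fold change was 0.62 ± 0.15 (SE; adjusted p = 0.0034, limma) at 2 days, 0.91 ± 0.15 (adjusted p = 6.8e-05) at 10 days, 0.79 ± 0.15 (adjusted p = 0.0005) at 20 days and 0.85 ± 0.15 (adjusted p = 0.00029) at 30 days. Without the second trained muscle of the 2-day group the change at 2 days was 0.49 (adjusted p = 0.069).

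Eef1a2 read 774, 867 and 997 in the lowest, median and highest contralateral muscle. The trained muscles read 825, 609.6 and 731 at 2 days, 759, 947 and 826 at 10 days, 924, 1088 and 618 at 20 days, and 744, 853 and 861 at 30 days. The sides overlapped: 5 trained muscles, 2 of them at 2 days, were below every contralateral muscle and 1 was above. Its log2 fold change was -0.28 at 2 days (95% interval -0.53 to -0.02, adjusted p = 0.092, limma), and -0.05, -0.03 and -0.09 later, with intervals from -0.34 at the lowest to 0.23 at the highest bound, so that a change of up to that size at 10 to 30 days was within the error.

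The ratio of Eef1a1 to Eef1a2 does not depend on the scaling factor, which cancels within a sample. In the contralateral muscles it was 0.0599 at the lowest, 0.0819 at the median and 0.108 at the highest, and Eef1a1 made up 7.69% ± 1.36 of the pair (SD, n = 12). The trained muscles gave 0.109, 0.215 and 0.154 at 2 days, 0.208, 0.146 and 0.135 at 10 days, 0.137, 0.103 and 0.215 at 20 days, and 0.162, 0.143 and 0.17 at 30 days, so that 11 of the 12 were above the highest contralateral muscle. The share of Eef1a1 was 13.6% ± 3.93, 13.97% ± 2.87, 13.1% ± 4.26 and 13.7% ± 1.02 (n = 3 each). The log2 ratio was higher by 0.90 at 2 days, 0.97 at 10 days and 0.95 at 30 days (two-sided exact permutation test, p = 0.0044 each, the smallest it can give, adjusted p = 0.0059 over the 4 time points) and by 0.82 at 20 days (p = 0.0088, adjusted p = 0.0088). The ratio was higher in the trained muscle of 12 of 12 rats, by 0.91 on the log2 scale (exact sign-flip permutation test over pairs, p = 0.00049, the smallest it can give). Within one time point, 3 pairs cannot give a p below 0.25 and 3 against 3 muscles none below 0.1. The rise of the macrophage, leukocyte and fibroblast sums given above went with that of Eef1a1, and their part in it was not tested.

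**Figure D3:**
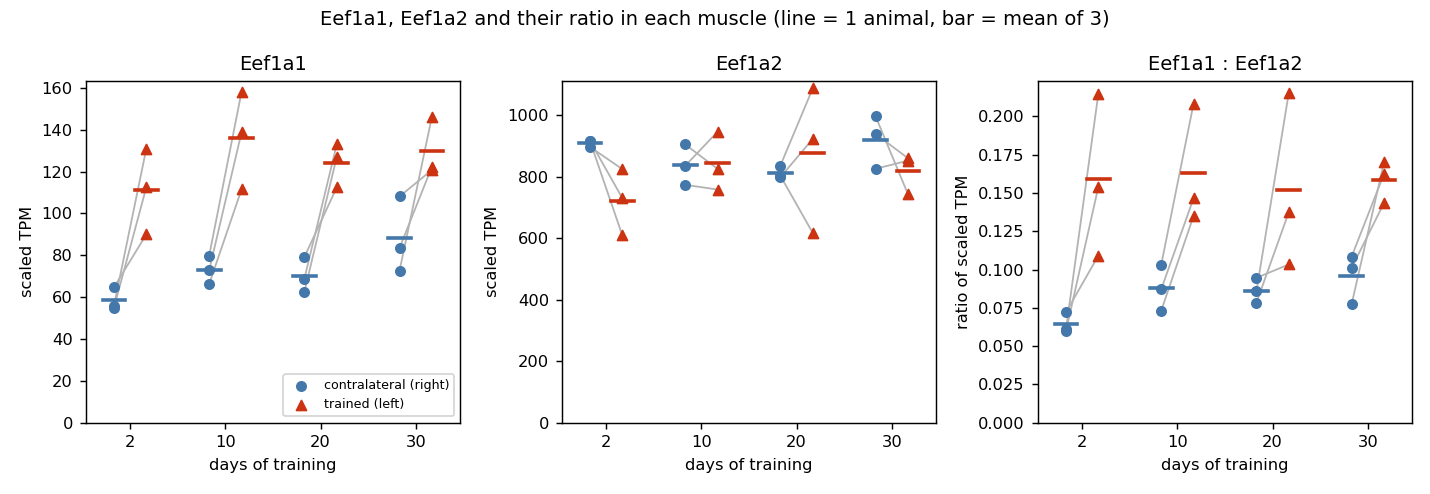
Eef1a1, Eef1a2 (scaled TPM) and their ratio in each contralateral (circles) and trained (triangles) muscle by days of training, with a line for each rat and a bar for the mean of 3. Eef1a1 and the ratio are higher in the trained muscle of all 12 rats, while Eef1a2 overlaps between the sides.

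Of the 3 other subunits of eEF1 (Eef1b2, Eef1d and Eef1g), 2 rose at 2 days, beside 15.4% of all genes tested. Eef1g, Eef1b2 and also Eef1e1, an auxiliary protein of the multi-tRNA synthetase complex in spite of its symbol, rose at that time by 0.41, 0.36 and 0.38 on the log2 scale (adjusted p = 0.014, 0.018 and 0.022, limma). With the animal as a block none of these 3 passed (adjusted p = 0.19, 0.42 and 0.094). Eef1g was also higher at 10 days (0.45, adjusted p = 0.0078), and 8 of its 12 trained muscles were above all contralateral muscles. Eef1d, another exchange subunit, stayed between -0.07 and 0.02 and passed at no time point.

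Promoter sequences are shown for 2 members that rose, for Eef1a2 and for Eef2k, because the isoforms differ in response and Eef2k holds CACGTG, a letter run bound by MYC, a factor the study considered. They are the 250 bases before the RefSeq gene start on GRCr8, a newer build than that of the expression files, written 5′ to 3′ on the strand of the gene. Capitals mark TATAA or its reverse complement, and CACGTG, which reads the same on both strands.
Eef1a1 (chr8:88225070-88225319, minus strand): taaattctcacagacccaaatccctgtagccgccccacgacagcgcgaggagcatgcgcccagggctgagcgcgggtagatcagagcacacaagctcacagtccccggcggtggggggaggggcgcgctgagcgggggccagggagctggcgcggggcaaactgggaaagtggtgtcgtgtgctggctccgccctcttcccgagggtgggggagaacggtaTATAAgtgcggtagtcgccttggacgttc
Eif4a1 (chr10:54888603-54888852, minus strand): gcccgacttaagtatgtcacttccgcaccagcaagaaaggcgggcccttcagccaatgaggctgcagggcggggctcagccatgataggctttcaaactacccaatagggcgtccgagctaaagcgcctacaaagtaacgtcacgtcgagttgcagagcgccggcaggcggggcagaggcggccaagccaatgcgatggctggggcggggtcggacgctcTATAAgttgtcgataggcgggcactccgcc
Eef1a2 (chr3:188652634-188652883, minus strand): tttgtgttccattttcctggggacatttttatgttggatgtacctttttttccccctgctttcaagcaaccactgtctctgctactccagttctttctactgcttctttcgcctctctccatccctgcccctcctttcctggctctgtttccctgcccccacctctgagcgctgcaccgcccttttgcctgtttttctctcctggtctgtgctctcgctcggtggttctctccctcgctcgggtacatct
Eef2k (chr1:184824170-184824419, plus strand): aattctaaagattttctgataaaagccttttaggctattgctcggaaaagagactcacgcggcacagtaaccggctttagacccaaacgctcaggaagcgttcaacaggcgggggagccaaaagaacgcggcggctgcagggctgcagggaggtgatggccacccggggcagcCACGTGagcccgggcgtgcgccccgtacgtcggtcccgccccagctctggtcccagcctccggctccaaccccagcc
A TATAA lay 29 to 25 bases before the start in Eef1a1 and 30 to 26 in Eif4a1, and none was in the window of Eef1a2. Among members that rose and are not shown, Eif4e2 held neither TATAA nor CACGTG. Eif4h held both, CACGTG 168 to 163 and TATAA, as its reverse complement, 21 to 17 bases before the start. A promoter was at hand for 59 of the 64 members. Of those, 10 (16.9%) held TATAA, beside 24% of all 33469 promoters and 22.2% of those of protein-coding genes. CACGTG was in 11 (18.6%), beside 5.59% of all promoters and 6.16% of those of protein-coding genes. Of the 11 with CACGTG, 2 were called at any time point, Eef2k and Eif4h, and of the 10 with TATAA, 5 were. Eif5a2 among the first and Eif2ak3 among the second were not tested. Of all 61 tested members, 22 were called at 1 or more time points. These counts are too small to tell the motifs apart, and no test was made. The motif of the amino acid response, TGATGNAAT, was in 0 members and in 0.944% of all promoters. A match says only that these letters are in this window.

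Eef2k, the kinase that inhibits eEF2, fell at all 4 time points, while Eef2 itself did not pass. Eef2k read 25.8, 35.4 and 40.3 scaled TPM in the lowest, median and highest contralateral muscle. The trained muscles read 27.8, 15.8 and 24.9 at 2 days, 22.8, 21.4 and 27.9 at 10 days, 25.1, 26.4 and 22.65 at 20 days, and 20.2, 20.3 and 22.5 at 30 days. It was below the contralateral muscle of the same rat in 12 of 12 animals, and 9 of 12 trained muscles were below all contralateral muscles. The log2 fold change was -0.58 ± 0.14 (SE), -0.48 ± 0.14, -0.44 ± 0.14 and -0.66 ± 0.14 (adjusted p = 0.0029, 0.012, 0.028 and 0.0016, limma). On the values as deposited it passed only at 30 days (-0.47, -0.36 and -0.44 at 2, 10 and 20 days, adjusted p = 0.058, 0.16 and 0.1), against time-matched controls it did not pass at 30 days (-0.53, adjusted p = 0.067), and without the second trained muscle of the 2-day group it was -0.35 at 2 days (adjusted p = 0.12). Eef2 was at 529 ± 19.9, 447 ± 40.5, 418 ± 98.4 and 408 ± 19.4 in the trained groups (SD, n = 3), and its log2 fold change at 30 days was -0.28 (95% interval -0.51 to -0.06, adjusted p = 0.063).

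Among the cap-binding and helicase factors, the 3 cap-binding proteins of the eIF4E family parted. Eif4e3, an atypical cap binder, fell at each time point. It read 20.8, 27.2 and 33.5 scaled TPM in the lowest, median and highest contralateral muscle, and 15.4, 12.4 and 10.97 in the trained muscles at 2 days, 12.2, 8.27 and 12.2 at 10 days, 15.98, 16.4 and 12.9 at 20 days, and 17.1, 13.9 and 18.6 at 30 days. All 12 trained muscles were below all 12 contralateral muscles. The log2 fold change was -0.97 ± 0.15 (SE; adjusted p = 2.4e-05, limma), -1.21 ± 0.15 (adjusted p = 1.1e-06), -0.76 ± 0.15 (adjusted p = 0.00054) and -0.64 ± 0.15 (adjusted p = 0.0032), and it passed at all 4 time points under every alternative tried.

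Eif4e2, the homologue that represses translation of bound mRNAs, rose. It read 22.5, 26.9 and 33.1 in the lowest, median and highest contralateral muscle. The trained muscles read 39.5, 44 and 47.7 at 2 days, 38.1, 48.5 and 37.9 at 10 days, 38.03, 37.4 and 29.3 at 20 days, and 33.9, 35.5 and 35.3 at 30 days, so that 11 of 12 were above all contralateral muscles. On the log2 scale the change was 0.67 ± 0.11 (SE; adjusted p = 0.0001, limma) at 2 days, 0.59 ± 0.11 (adjusted p = 0.00038) at 10 days, 0.34 ± 0.11 (adjusted p = 0.033) at 20 days and 0.35 ± 0.11 (adjusted p = 0.031) at 30 days. With the animal as a block the last 2 did not pass (0.27 and 0.20, adjusted p = 0.18 and 0.35), and without the scaling factor the value at 30 days was 0.13 (adjusted p = 0.38). Eif4e, the canonical cap binder, read 25.1 to 33.6 in the contralateral and 24.7 to 33.8 in the trained muscles and passed at no time point; its log2 fold changes were 0.11, 0.03, -0.01 and 0.21.

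Eif4a1, a helicase of the cap-binding complex, rose at 2, 10 and 20 days while its paralogue Eif4a2 did not pass. Eif4a1 read 23.4, 26.4 and 36.3 in the lowest, median and highest contralateral muscle. The trained muscles read 39.05, 63.02 and 61.65 at 2 days, 43.7, 38.4 and 37.6 at 10 days, 45.3, 38.6 and 43.3 at 20 days, and 36.5, 35.5 and 34.95 at 30 days. It was above the contralateral muscle of the same rat in 12 of 12 animals. Its log2 fold change was 0.90 ± 0.13 (SE; adjusted p = 1.7e-05, limma), 0.49 ± 0.13 (adjusted p = 0.0068), 0.58 ± 0.13 (adjusted p = 0.0026) and, at 30 days, 0.33 ± 0.13 (adjusted p = 0.077); with the animal as a block the last was 0.48 and passed (adjusted p = 0.022). Eif4a2 was far higher and read 296 to 389 in the contralateral and 259 to 373 in the trained muscles.

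The ratio of Eif4a1 to Eif4a2 was 0.0697 to 0.103 in the contralateral muscles, where Eif4a1 made up 7.75% ± 0.964 of the pair (SD, n = 12). In the trained groups the share was 16.2% ± 4.12, 11.5% ± 1.63, 12.6% ± 0.344 and 9.62% ± 0.887 in order of time (n = 3 each). The log2 ratio was higher by 1.18, 0.63 and 0.79 at 2, 10 and 20 days (two-sided exact permutation test, p = 0.0044 each, adjusted p = 0.0059) and by 0.35 at 30 days (p = 0.013, adjusted p = 0.013), and it was higher in the trained muscle of 12 of 12 rats (exact sign-flip permutation test, p = 0.00049). Leaving out the first or the third trained muscle of the 30-day group gave 0.28 or 0.34 at 30 days (adjusted p = 0.066 each, exact permutation test).

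Of the other members of the eIF4 group, 4 were called. Eif4b, which stimulates the helicase, fell by 0.32, 0.33 and 0.37 on the log2 scale at 2, 10 and 20 days (adjusted p = 0.0025, 0.0021 and 0.00092, limma) and was below the contralateral muscle of the same rat in 12 of 12 animals; with the animal as a block it did not pass at 2 days (-0.22, adjusted p = 0.19), nor on the values as deposited at 2 and 10 days (-0.21 each, adjusted p = 0.093 and 0.1). Eif4h, a related helicase partner, rose by 0.42 at both 2 and 10 days (adjusted p = 0.0025 and 0.0027, limma), with 0.28 and 0.36 (adjusted p = 0.15 and 0.077) under the block. Of the scaffolds, Eif4g2 fell at 10 and 20 days and Eif4g3 at 20 days, by 0.27 to 0.34 (Eif4g2 did not pass with the animal as a block, adjusted p = 0.085 and 0.13), and Eif4g1 passed at no time point on values of 2.04 to 7.6 in the contralateral muscles. Eif4a3, the helicase of the exon junction complex, reached 0.15 at most and did not pass.

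The group of eIF4E inhibitors had 4 members, of which 3 are the binding proteins that keep it from the scaffold until mTORC1 phosphorylates them. Of the 4, the number called lower was 1, 2, 3 and 1 in order of time, and none was called higher. The shares of all genes called lower were 13.4%, 13.3%, 9.57% and 9.4%. The number of the 4 with a log2 fold change above 0 was 2, 1, 1 and 2. Eif4ebp2 read 11.6, 18.8 and 24.05 in the lowest, median and highest contralateral muscle. Its trained muscles read 15.2, 7.57 and 10.98 at 2 days, 11.6, 11.7 and 13.6 at 10 days, 12.7, 13.7 and 9.18 at 20 days, and 15.8, 15.1 and 13.4 at 30 days. They overlapped the contralateral range in 8 of 12 muscles, yet each was below the contralateral muscle of its own rat. The change amounted to a log2 fold of -0.70 ± 0.17 (SE), -0.54 ± 0.17 and -0.60 ± 0.17 at 2, 10 and 20 days (adjusted p = 0.0037, 0.023 and 0.015, limma) and -0.29 at 30 days (adjusted p = 0.26). With the animal as a block it did not pass at 10 days (-0.39, adjusted p = 0.05), and without the second trained muscle of the 2-day group it was -0.47 at 2 days (adjusted p = 0.11).

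Eif4ebp1 was called lower at 10, 20 and 30 days and not at 2 days. Its difference between the trained 30-day and 2-day groups did not pass (-0.49, adjusted p = 0.066, limma). Eif4ebp1 read 29.99, 35.5 and 45.8 in the lowest, median and highest contralateral muscle. The trained muscles read 37.4, 39.6 and 35.6 at 2 days, 25.7, 28.4 and 22.7 at 10 days, 25.9, 34.2 and 19.5 at 20 days, and 33.5, 26.7 and 20.7 at 30 days, so that the 3 muscles of the 10-day group were below all contralateral muscles. Relative to the 12 contralateral muscles the log2 change was 0.09 ± 0.14 (SE; adjusted p = 0.68, limma) at 2 days and -0.45, -0.43 and -0.40 at 10, 20 and 30 days (adjusted p = 0.018, 0.03 and 0.045). With the animal as a block it did not pass at 10 and 30 days (-0.37 and -0.40, adjusted p = 0.068 and 0.07). Without the third trained muscle of its group it was -0.23 at 20 days (adjusted p = 0.31) and -0.23 at 30 days (adjusted p = 0.37). Eif4ebp3 passed at no time point, and Eif4enif1, the nuclear import partner of eIF4E, fell at 20 days only (-0.27, adjusted p = 0.025, limma), and not with the animal as a block (adjusted p = 0.13).

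**Figure D4:**
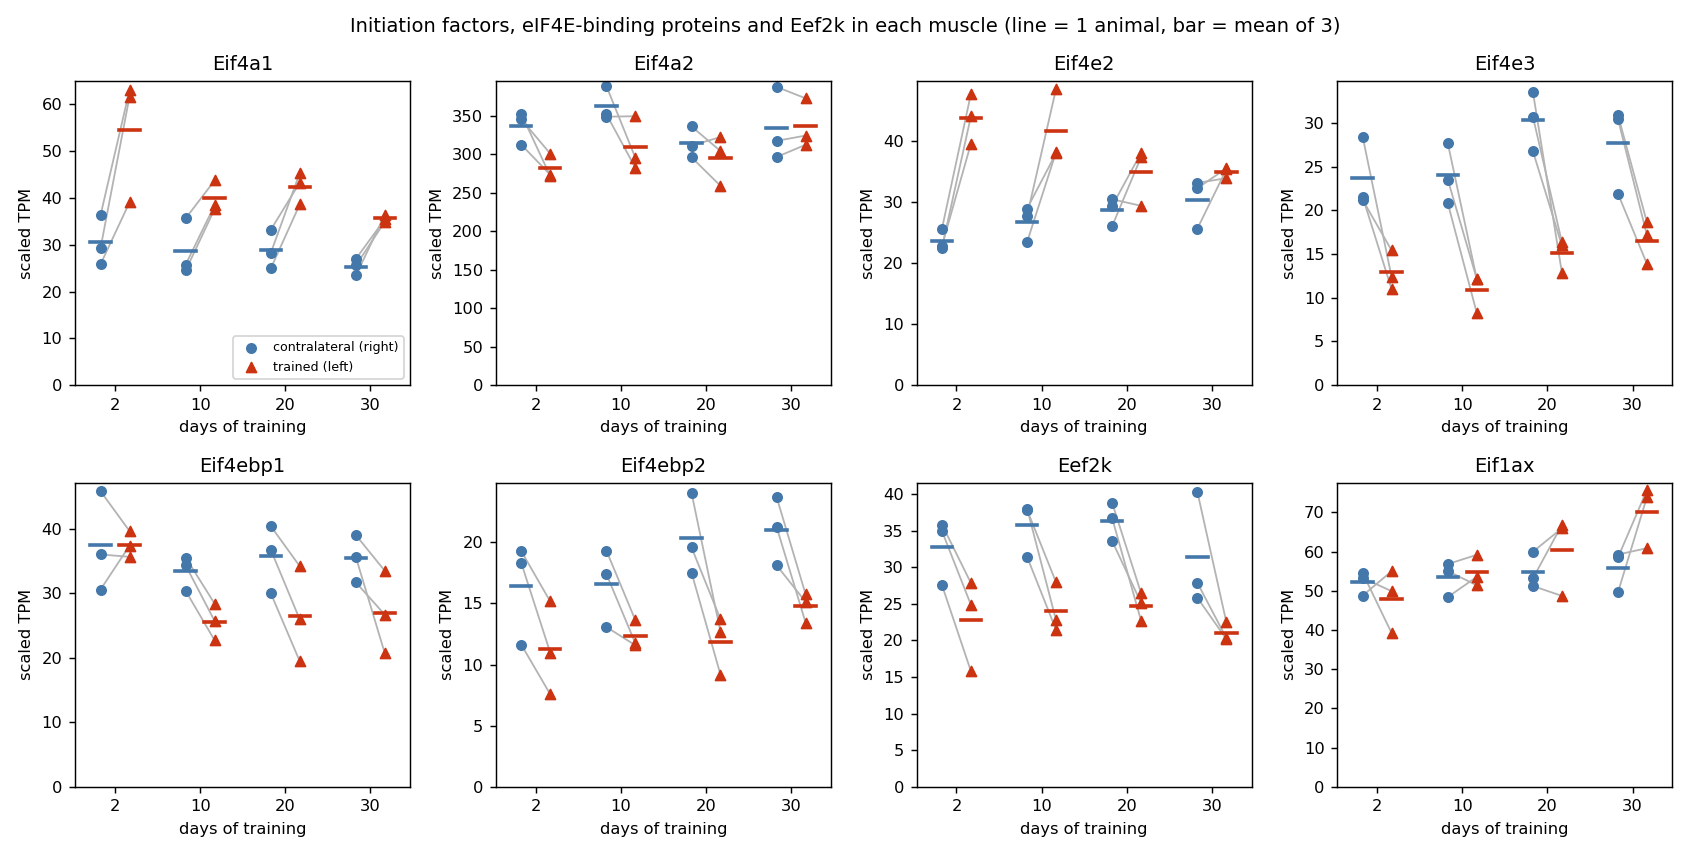
Scaled TPM of 8 members in each contralateral (circles) and trained (triangles) muscle by days of training, with a line for each rat and a bar for the mean of 3. Eif4e3 is lower in all 12 trained muscles than in any contralateral muscle, Eif4a1 is higher within each of the 12 rats, and Eif4a2 overlaps between the sides.

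Most factors of the start codon complex and of the eIF2 cycle did not pass, as was so for most genes. The called share of all genes was 28.8%, 28.9%, 21.2% and 20.5% in order of time. Of the 11 members with an eIF1, eIF1A or eIF2 symbol, 0 passed at 2 and 20 days. Eif1 (-0.44, adjusted p = 0.0047, limma, and 0.068 with the animal as a block) and Eif1ad (-0.39, adjusted p = 0.02, and 0.11 on the values as deposited) fell at 10 days, and Eif1ax rose at 30 days. Eif1ax, which encodes a form of eIF1A on the X chromosome, read 48.4, 53.9 and 59.98 in the lowest, median and highest contralateral muscle and 55.01, 39.2 and 49.9 at 2 days, 59.2, 51.4 and 53.6 at 10 days, 66.8, 48.7 and 65.97 at 20 days and 60.9, 75.8 and 73.97 at 30 days. The 3 muscles of the 30-day group were above all contralateral muscles, with a log2 fold change of 0.37 ± 0.11 (SE; adjusted p = 0.015, limma). It did not pass with the animal as a block (0.32, adjusted p = 0.16) or on the values as deposited (0.15, adjusted p = 0.34). Eif2s1, the subunit whose phosphorylation slows initiation, did not pass, with 0.26 at 2 days and 0.25 at 30 days.

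Of the 5 subunits of eIF2B, the exchange factor that recharges eIF2, 0 passed at any time point, and their log2 fold changes lay between -0.26 and 0.15. With 28.8%, 28.9%, 21.2% and 20.5% of all genes called in order of time, 0 of 5 says little by itself. Of the 3 tested kinases of eIF2 alpha, Eif2ak1, the haem-regulated kinase, fell at 2 and 10 days (-0.33 and -0.36, adjusted p = 0.0086 and 0.0046, limma) but not with the animal as a block (adjusted p = 0.051 and 0.18). Eif2ak2 (PKR) and Eif2ak4 (GCN2) lay between -0.13 and 0.13. The scaffold eIF3, with 12 members, was the largest set. A single member passed at a single time point, Eif3j at 10 days (-0.33, adjusted p = 0.037), and not with the animal as a block (adjusted p = 0.078). The medians of eIF3 were 0.09, -0.04, -0.03 and 0.02, and 95% intervals of single subunits ran from -0.57 to 0.65 at the widest.

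Of the 4 tested factors of subunit joining and beyond, Eif5, the activator of the eIF2 GTPase, was the one member called in both directions. It rose at 2 days (0.42, adjusted p = 0.017, limma) and fell at 20 days (-0.41, adjusted p = 0.027), and neither passed with the animal as a block (adjusted p = 0.15 and 0.09). Its values were 57.2, 74.3 and 61.1 at 2 days and 32.03, 32.7 and 42.8 at 20 days, beside 30.1 to 55.8 in the contralateral muscles. Eif5b, which joins the subunits, fell at 10 days (-0.32, adjusted p = 0.025, limma), but not on the values as deposited (-0.21, adjusted p = 0.17). Eif5a and Eif6 did not pass. The 3 tested methyltransferases of eEF1A, Eef1akmt1, Eef1akmt2 and Eef1akmt4, were at 1.67 to 1.98 in the contralateral muscles and did not pass.

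To ask whether the level of a member in trained muscles differed with the length of training, the trained 30-day and 2-day groups were compared. Of all genes tested, 15% were called (7.06% higher, 7.91% lower). Of the members, 1 was higher at 30 days, Eif1ax (0.55, 95% interval 0.27 to 0.82, adjusted p = 0.0076, limma), and 4 were lower. The log2 difference was -0.77 for Eif5 (95% interval -1.11 to -0.43, adjusted p = 0.0024), -0.57 for Eif4a1 (-0.92 to -0.22, adjusted p = 0.023), -0.53 for Eef1e1 (-0.85 to -0.21, adjusted p = 0.021) and -0.48 for Eif4h (-0.74 to -0.22, adjusted p = 0.012). These are different rats. When each was set against its own contralateral muscle, 2.71% of all genes and 0 members passed (10 at an unadjusted p under 0.05), with 0.45 for Eif1ax, -0.50 for Eif5, -0.32 for Eif4a1, -0.55 for Eef1e1 and -0.25 for Eif4h. Without the second trained muscle of the 2-day group 1 member was called, without the third 3, and without the third of the 30-day group 2. The 4 groups of contralateral muscles were compared with each other as a background: 0 members passed a limma F test (4 at an unadjusted p under 0.05, Eef1a1 among them with an adjusted p of 0.39), beside 0.0663% of all genes tested.

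**Figure D5:**
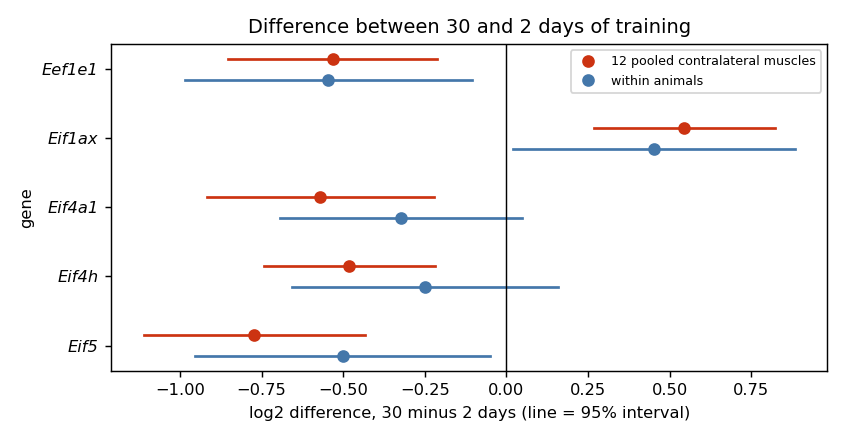
Log2 difference between 30 and 2 days of training for the 5 members called, with 95% intervals. Red is the difference between the trained groups, with its spread estimated in the fit that also held the pooled contralateral muscles. Blue is the difference within animals against the contralateral muscle. The red intervals lie off 0 for all 5 members, and the blue intervals are wider and include 0 for Eif4a1 and Eif4h.

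Around the factors, genes that govern them were counted from lists. The calls of these genes, here and in the next paragraph, come from the fit with pooled contralateral muscles only. They were not tried under the alternatives given for the members, such as the animal as a block. Of 22 genes of mTORC1 and its targets, 21 were tested, and 1 rose and 5 fell at 2 days, 3 fell at 10 days, 5 at 20 days and 2 at 30 days, with medians of -0.20, -0.18, -0.19 and -0.23, beside medians of -0.01, -0.03, -0.03 and -0.01 over all genes, of which 13.4%, 13.3%, 9.57% and 9.4% were lower. The counts at 10 and 30 days were thus near the share of all genes. Rps6kb1, the S6 kinase that mTORC1 activates, fell at all 4 time points: it read 15.9, 18.1 and 20.6 in the lowest, median and highest contralateral muscle, and 17.1, 12.4 and 14.8 at 2 days, 15.9, 11.3 and 13.5 at 10 days, 11.996, 8.92 and 13.2 at 20 days, and 14.2, 11.4 and 14.6 at 30 days. Its log2 fold change was -0.31, -0.42, -0.67 and -0.44 (adjusted p = 0.045, 0.0067, 0.00015 and 0.0081, limma). Mtor itself lay between -0.14 and -0.03 and Pdcd4, an inhibitor of the eIF4A helicase, between -0.27 and -0.23, and neither passed. Sesn1, a stress-induced inhibitor of mTORC1, fell at 2 and 20 days (-0.86 and -0.45, adjusted p = 0.00014 and 0.037, limma). Ddit4, another inhibitor, did not pass and was at 96.3 in 1 contralateral muscle beside a median of 4.74.

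Of the 4 genes of eIF2 alpha dephosphorylation and the GCN2 partners, Ppp1r15a (GADD34), which brings the phosphatase to eIF2 alpha, rose at all 4 time points and the other 3 passed at none. It read 13.2, 21.99 and 30.3 in the lowest, median and highest contralateral muscle, and 80.8, 64.2 and 63.8 at 2 days, 62.3, 75.2 and 61.2 at 10 days, 61.6, 70.1 and 50.4 at 20 days, and 54.5, 52.3 and 34.1 at 30 days, with all 12 trained muscles above. On the log2 scale the change was 1.66, 1.59, 1.46 and 1.08 (adjusted p = 7.8e-08, 1.3e-07, 7.8e-07 and 6.1e-05, limma), larger in size than that of any member at the same time point. Of 6 poly(A)-binding proteins and partners, Pabpc1, which bridges the tail to eIF4G, rose at 2, 10 and 30 days (0.78, 0.56 and 0.35, adjusted p = 1.7e-05, 0.00065 and 0.03, limma), and Paip2b, an inhibitor of it, fell at 2 and 20 days. Of 9 mitochondrial factors, 4 fell at 2 days, Tufm among them (-0.31, adjusted p = 0.032, limma), 3 at 10 days and 0 later, with medians of -0.31, -0.27, -0.06 and -0.08. Of 5 tested genes of termination and recycling, 2 fell at 10 days, 1 fell at 20 days and 1 rose at 30 days. The 9 enzymes of hypusine and diphthamide, which modify eIF5A and eEF2, had 0 called at 2 to 20 days and 2 lower at 30 days. Beside the counts of these small lists, the shares of all genes that were lower at 2, 10, 20 and 30 days were 13.4%, 13.3%, 9.57% and 9.4%, and the shares higher 15.4%, 15.6%, 11.7% and 11.1%.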

How the data were processed

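Poly(A) RNA was sequenced from 24 tibialis anterior muscles (paired end, directional). Per the study's methods the authors trimmed reads, aligned them to Rnor_6.0 (rn6) with STAR in Partek Flow and quantified Ensembl release 99 transcripts. The methods name DESeq2 median-of-ratios scaling, but the TPM-type transcript values that the authors deposited sum to 634431 in every sample and so were scaled again here. They also deposited a gene-level table of signal for 4635 genes, 47 members among them. A table of the authors' own comparisons (p-values, fold changes) was not used. Depth per sample cannot be read from these values. Reads were not counted, so no count model was run.

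The rule found 64 genes; 1 further gene whose symbol matched (3 transcripts) was not protein-coding. Values were divided by median-of-ratios factors computed over 16230 transcripts that no sample lists at 0, then summed per gene, giving 15341 genes. Genes at 1 or more in at least 3 samples were fitted with limma 3.58.1 (R 4.3.3) on log2(value + 1), with 12 contralateral muscles and 4 trained groups of 3 in 1 fit, Benjamini-Hochberg adjustment over all genes and a threshold of 0.05. The fit was tested on simulated data. Samples with the same number are the muscles of 1 rat, so the numbers pair them; deviations from the group means correlated within a rat at a median r of 0.179 (0.024 to 0.34, 12 pairs, 8 over 0.1). Of 276 pairs of samples 0 were identical.

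Members and lists were chosen with earlier results of these data known. Per-muscle values were given for Eef1a1, Eef1a2 and, at each time point, the 3 members with the largest rise and the 3 with the largest fall of those that passed and whose mean reached 5 in one of the groups, plus those past it in one direction at all 4; Paip2b and the promoters shown were chosen after their values were seen. Ratios were tested by exact permutation with Python 3.11.15 and numpy 2.4.6, and figures drawn with matplotlib 3.10.9. Promoters came from RefSeq (GRCr8). Alternatives were the values as deposited, a pseudocount of 0.1, no filter, the highest transcript per gene, an intensity trend, the animal as a block, time-matched controls, the gene-level table and each replicate left out; leaving out the contralateral muscle with the lowest factor, and the gene-level table for 30 against 2 days, were added after seeing the data. Reads of Eef1a1 and Eif4a1 may be shared with copies: RefSeq lists 20 and 8 pseudogenes of them.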

Additional observations from a re-analysis of the deposited data

Results flagged for a closer look

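The level in trained muscles differed between 30 and 2 days for 5 members in limma. The contralateral muscles did not enter this difference but did enter the estimate of its spread. These were Eif5 (-0.77), Eif4a1 (-0.57), Eef1e1 (-0.53), Eif4h (-0.48) and Eif1ax (0.55). None of the 5 passed when each trained muscle was set against the contralateral muscle of its rat. Trained groups of 3 were too small to be searched for single muscles that stand apart.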

How the results depend on the processing

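The animal as a block and time-matched controls gave 6 and 7 members called at 2 days (13 as reported), 10 and 8 at 10 days (16), 8 and 7 at 20 days (12), and 6 and 3 at 30 days (6). Values as deposited gave 7 at 10 days, 7 at 20 days and 23 at 30 days, and 29 between 2 and 30 days (5 as reported), where the animal as a block gave 0 and the gene-level values gave 9 (1 higher, 8 lower, with 27.7% of its genes called; added after seeing the data). Leaving out 1 muscle (a trained one, or the contralateral muscle with the lowest scaling factor, a choice made after seeing the data) gave 4 to 14 at 2 days, 8 to 17 at 10 days, 9 to 11 at 20 days, 3 to 6 at 30 days and 1 to 6 between 2 and 30 days. Counts under the remaining alternatives (pseudocount, filter, highest transcript, intensity trend, and the gene-level table within each time point) were within 1.5 times those reported, and no alternative run for the contralateral groups called a member. The cause of these shifts was not tested.

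With the animal as a block or time-matched controls, which give the same value, the log2 ratio of Eef1a1 to Eef1a2 was higher by 1.26, 0.88, 0.76 and 0.74 at 2, 10, 20 and 30 days, and that of Eif4a1 to Eif4a2 by 1.08, 0.73, 0.66 and 0.48, in designs whose exact permutation p cannot fall below 0.25 or 0.1. Leaving out 1 trained muscle gave 0.66 to 1.15, 0.78 to 1.09, 0.54 to 1.07 and 0.89 to 1.02 for the first ratio and 1.04 to 1.45, 0.54 to 0.77, 0.76 to 0.80 and 0.28 to 0.43 for the second.

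No called change of a member changed sign. The uncalled differences of Eef1a2 did: at 10 days 0.030 in the gene-level table, 0.0058 with the animal as a block and with time-matched controls, 0.074 on values as deposited and, without 1 trained muscle, -0.13 to 0.026 (the highest without the first), and at 20 days 0.022 in the gene-level table, 0.069 with the block and with time-matched controls and, without 1 trained muscle, -0.20 to 0.21 (the highest without the third). Between 2 and 30 days, where neither gene was called, Eef1a1 was -0.33 with the block and -0.10 on values as deposited, and Eef1a2 was -0.15 on values as deposited. The calls given for single members numbered 13, 16, 12 and 6 at the 4 time points and 5 between 2 and 30 days. The animal as a block ended 26 of them and the values as deposited 20. Time-matched controls, which were not run between 2 and 30 days, ended 24. Depth, and with it the error of low members such as Eef1akmt1, could not be assessed, and 3 rats per time point limit what a comparison can show.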

Other observations

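Of the 39 tested members with no call at any time point, 6 were below the contralateral muscle of their own rat in 10 of 12 animals (Eif1b, Eif2a, Eif2b1, Eif2d, Eif2s3y and Eif4g1), and 4 were above it in 9 of 12 (Eef1akmt2, Eif1a, Eif3l and Eif4e), the most in either direction. These were chosen after their values were seen, and no test was made. Among them Eif2b1, the alpha subunit of eIF2B, had 7 trained muscles below all contralateral muscles and a lowest adjusted p of 0.052 at 10 days (log2 fold change -0.26, limma).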
